A study of Mus musculus with 10 samples.

Results

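The genes described here are 10 components of activin and bone morphogenetic protein (BMP) signalling, read in cultured mouse lung fibroblasts. They are the activin subunit genes Inhba and Inhbb, the activin-binding antagonists Fst and Fstl3, the ligands Bmp2 and Bmp4, the BMP antagonist Grem1, and the BMP-induced genes Id1, Id2 and Id3. The genes were listed by name, with earlier results of these data known, and each was read by its brightest probe set (the highest mean over all 10 arrays) among those with a single gene symbol. All 10 were read, of 18193 genes in all.

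Total RNA was hybridised to Affymetrix Mouse430_2 arrays, where sets of short probes report each transcript. There were 5 arrays of carcinoma-associated fibroblasts (CAF), the fibroblasts of a tumour, and 5 arrays of fibroblasts from normal lung. Both kinds of cells came from mouse lungs and were grown in DMEM with 10% serum for 10 to 14 days, then replated on 10 cm dishes for a last night. The strain, genotype, tumour model and age of the mice are not given in the sources used here, and neither is the number of animals behind a culture, so p-values measure the spread between these cultures. All 5 CAF arrays carry a label code that begins with ls. Among the normal arrays, replicates 4 and 5 have the same prefix and replicates 1 to 3 begin with vs. The meaning of the prefixes is not stated, and the members' differences were also computed against either kind of normal array alone.

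Activins and BMPs are secreted dimers of the TGF-beta superfamily. An activin A dimer is made of the product of Inhba, an activin B dimer of that of Inhbb, and both signal through type I and type II receptor kinases to SMAD2 and SMAD3. BMPs signal through related receptors to SMAD1, SMAD5 and SMAD9, which switch on the ID genes. ID proteins hold back basic helix-loop-helix transcription factors by dimerising with them. The system is also set outside the cell: follistatin (Fst) and follistatin-like 3 (Fstl3) bind activins, and gremlin 1 (Grem1) binds BMP2 and BMP4. In lung, these signals act in branching, in fibroblast activation and in fibrosis.

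Promoter sequence was on hand for 7 of the 10 genes in RefSeq's table of mouse assembly GRCm38.p6: Inhba, Inhbb, Fstl3, Bmp4, Grem1, Id2 and Id3. The 250 bases before the start site are shown for Inhba and Grem1, which had the largest differences between the groups, and for Id2, the gene with the strongest correlation with Grem1 from culture to culture. The windows are Inhba, chr13:16011601-16011850 on the plus strand, Grem1, chr2:113758649-113758898 on the minus strand, and Id2, chr12:25096093-25096342 on the minus strand. Capitals mark, on either strand, the letters GGCGCC (a GC-rich element known from BMP-responsive regions), CCAAT and TATAAA.
Inhba: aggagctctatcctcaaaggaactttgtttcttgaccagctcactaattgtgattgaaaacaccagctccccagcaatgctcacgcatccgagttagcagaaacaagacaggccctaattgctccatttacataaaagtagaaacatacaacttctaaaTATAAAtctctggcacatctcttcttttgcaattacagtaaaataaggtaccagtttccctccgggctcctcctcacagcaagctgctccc
Grem1: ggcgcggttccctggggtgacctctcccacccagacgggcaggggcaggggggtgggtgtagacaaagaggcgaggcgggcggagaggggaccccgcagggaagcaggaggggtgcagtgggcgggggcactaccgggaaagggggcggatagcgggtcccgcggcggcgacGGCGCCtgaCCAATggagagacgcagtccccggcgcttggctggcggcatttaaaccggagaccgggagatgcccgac
Id2: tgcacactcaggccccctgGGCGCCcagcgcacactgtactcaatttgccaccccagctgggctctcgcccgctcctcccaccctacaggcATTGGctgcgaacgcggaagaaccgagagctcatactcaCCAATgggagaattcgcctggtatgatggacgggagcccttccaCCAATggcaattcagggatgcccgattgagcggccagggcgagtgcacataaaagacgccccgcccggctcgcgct
The Inhba window is 43.2% G and C and holds TATAAA once, and the Grem1 window is 72.0% G and C with GGCGCC and CCAAT once each. The Id2 window is 62.8% G and C and holds GGCGCC once and CCAAT 3 times. GGCGCC was absent from the Inhba window and from those of Inhbb, Fstl3, Bmp4 and Id3, which are not shown. Over 27025 mouse promoter windows of the same length, 9.54% hold GGCGCC, 34.5% CCAAT and 13.0% TATAAA, with overlapping matches each counted. These matches describe the letters only.

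The cultures carried the markers of fibroblasts: the 9 listed fibroblast markers had a mean log2 level of 12.4 to 14.0 on CAF arrays and 12.5 to 14.5 on normal arrays, and 0 of them passed the test. Macrophage transcripts were also bright, with a mean over 12 markers of 10.7 to 13.2 on CAF arrays and 9.78 to 13.3 on normal arrays, and all 12 differences were positive. The 9 mesothelial markers had means of 6.89 to 9.29 on CAF arrays and 6.06 to 10.1 on normal arrays, and all 9 differences were negative. The 9 endothelial markers had means of 6.01 to 6.09 on CAF arrays and 6.12 to 6.21 on normal arrays, without overlap. These means lay near the lower quartile of 6.13 over all genes. Of the 9 differences, 3 were positive, and the median was -0.14. Taken singly, 7.16% of all genes had no overlap. The 9 epithelial markers had 6.43 to 7.10 on CAF arrays and 6.69 to 7.35 on normal arrays, the 8 markers of pericytes and vascular smooth muscle 9.72 to 10.3 on CAF arrays and 9.02 to 9.90 on normal arrays, and the 6 lymphocyte markers read 5.83 to 6.01 on CAF arrays and 5.93 to 6.06 on normal arrays. No marker of these lists passed the test, and the part of other cells in the results below was not tested. In such bulk cultures, fewer cells of a type and less RNA per cell cannot be told apart.

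The comparison of CAF with normal fibroblasts asks which signals of this system differ once the cells are in culture. Grem1 and Inhba had the largest differences, both towards higher values in CAF, at 1.70 ± 0.58 and 1.31 ± 0.39 on the log2 scale (difference ± moderated SE, 5 arrays per group). The activin antagonists Fst and Fstl3 had smaller positive differences, while Bmp4 and Bmp2 were at nearly the same mean in the groups and Id2 and Id3 had small negative differences. None of the 10 genes passed the test. Limma, adjusted over all 18193 genes by Benjamini-Hochberg at 0.05, called 0 of 10 members, where it called 0.753% of all genes (0.561% higher and 0.192% lower). Higher and lower calls numbered 102 and 35 on the deposited scale and 43 and 49 after quantile normalisation, and 0 members were called on either. At an unadjusted p under 0.05 there were 2 members, Inhba and Grem1, where 22.3% of all genes reached that level. The exact permutation test per gene gave 0 calls after adjustment and 2 members at an unadjusted p under 0.05. With 5 arrays against 5 its p cannot fall below 0.00794, a value reached only where the groups do not overlap. After adjustment over 18193 genes that limit leaves little room for calls, so the 0 calls are not a further check. In 8 of 10 members the difference was above 0, which held for 42.7% of all genes, and the median difference was 0.27 over the members and -0.04 over all genes. Bmp2 (0.04) and Bmp4 (0.01) are among these 8. After quantile normalisation 7 members and 7807 of 18193 genes had a difference above 0. After median centring 8 members and 9189 genes did. The CAF and normal values overlapped in all 10 members, and 7.16% of all genes had no overlap. The normal cultures were the more varied group: 8 of 10 members had the larger SD there, as did 71.1% of all genes, and Fst and Id3 had the larger SD in CAF.

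**Figure D1:**
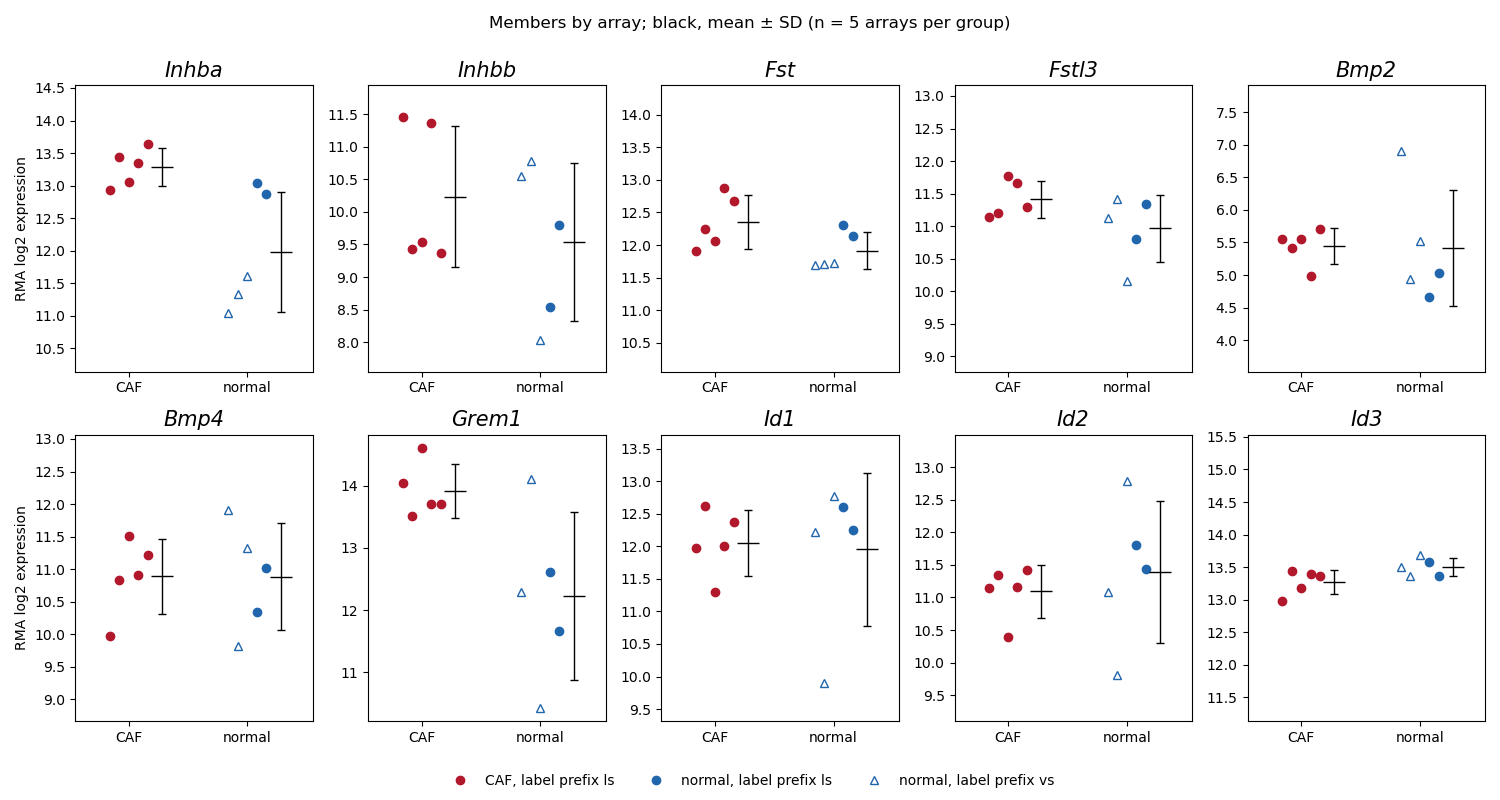
RMA log2 expression of each member on every array, CAF to the left of normal in each panel, with circles for label prefix ls, triangles for prefix vs, and black bars for the mean ± SD over 5 arrays. The 5 CAF arrays lie close together for Inhba and Grem1, while the normal arrays spread over 2.00 and 3.70 log2 units.

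Inhba, the activin A subunit gene, had log2 levels of 12.94, 13.44, 13.06, 13.35 and 13.64 on CAF arrays 1 to 5, against 11.04, 11.34, 11.61, 13.04 and 12.88 on normal arrays 1 to 5. The 3 normal arrays with prefix vs lay more than 1 log2 unit below every CAF array, and of the 2 with prefix ls, array 4 lay among the lower CAF values and array 5 just below the lowest. The CAF arrays averaged 13.29 ± 0.29 and the normal arrays 11.98 ± 0.92 (SD, 5 arrays each), a 2.48-fold higher value in CAF that did not pass (limma adjusted p = 0.107). Against the vs normal arrays alone the difference was 1.96 ± 0.18 (limma adjusted p = 0.00739), in a comparison that called 1.57% of all genes (1.18% higher and 0.385% lower) and put 20.2% at an unadjusted p under 0.05. Against the ls normal arrays alone it was 0.33 ± 0.21 (limma adjusted p = 0.443), in a comparison that called 0 genes, with 14.6% of all genes at an unadjusted p under 0.05. The ls normal arrays themselves were 1.63 ± 0.23 higher than the vs normal arrays for Inhba, with an unadjusted limma p of 6.33e-05 and an adjusted p of 0.390. That contrast also called 0 genes, and 7.88% reached an unadjusted p under 0.05. All CAF arrays are ls, so against the vs normal arrays group and prefix change together and cannot be told apart. With the arrays weighted by how well they fit their group (limma's array weights, 0.331 to 0.655 for the vs normal arrays and 0.957 to 1.92 for the others), the difference of Inhba was 0.84 ± 0.33 (limma adjusted p = 0.118). The other probe set of Inhba was dim, between 5.34 and 5.55 on CAF arrays and between 5.46 and 5.72 on normal arrays, with a difference of -0.16 ± 0.07.

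Inhbb, the activin B subunit gene, split the CAF arrays into separate levels. It had 11.46, 9.43, 9.54, 11.37 and 9.37 on CAF arrays 1 to 5, against 10.56, 10.78, 8.03, 8.54 and 9.80 on normal arrays 1 to 5. CAF arrays 1 and 4 stood nearly 2 log2 units above the other 3, and the normal values spanned 2.75 log2 units. The difference of 0.69 ± 0.66 was about as large as its SE (limma adjusted p = 0.558), with 1.07 ± 0.90 for ls and 0.44 ± 0.78 for vs normal arrays. Leaving out 1 array gave 0.32 (without normal array 3) to 1.00 (without normal array 2), and 0.39 and 0.41 without CAF array 1 or 4. The dimmer probe set of Inhbb put the same 2 CAF arrays on top, at 9.10 and 8.94 against 8.04 to 8.46 on the other CAF arrays, with a difference between the groups of -0.08 ± 0.29.

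Of the activin antagonists, Fst, which encodes follistatin, had 11.91, 12.24, 12.07, 12.88 and 12.68 on CAF arrays 1 to 5, against 11.69, 11.71, 11.72, 12.30 and 12.14 on normal arrays 1 to 5. The 3 vs normal arrays were below all CAF arrays and the 2 ls normal arrays among them, the same division of the normal arrays as for Inhba. The difference was 0.44 ± 0.21 (limma adjusted p = 0.244), with 0.13 ± 0.24 when set against normal arrays 4 and 5 (ls) and 0.65 ± 0.21 against arrays 1 to 3 (vs). The dimmer Fst probe set differed by 0.49 ± 0.24. Fstl3 had 11.14 to 11.77 on CAF arrays (median 11.30) and 10.16 to 11.41 on normal arrays (median 11.13), with normal array 3 the lowest. Its difference was 0.45 ± 0.24 (limma adjusted p = 0.300), with 0.35 ± 0.33 from the ls pair and 0.52 ± 0.29 from the vs normal arrays. Without normal array 3 it was 0.25.

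**Figure D2:**
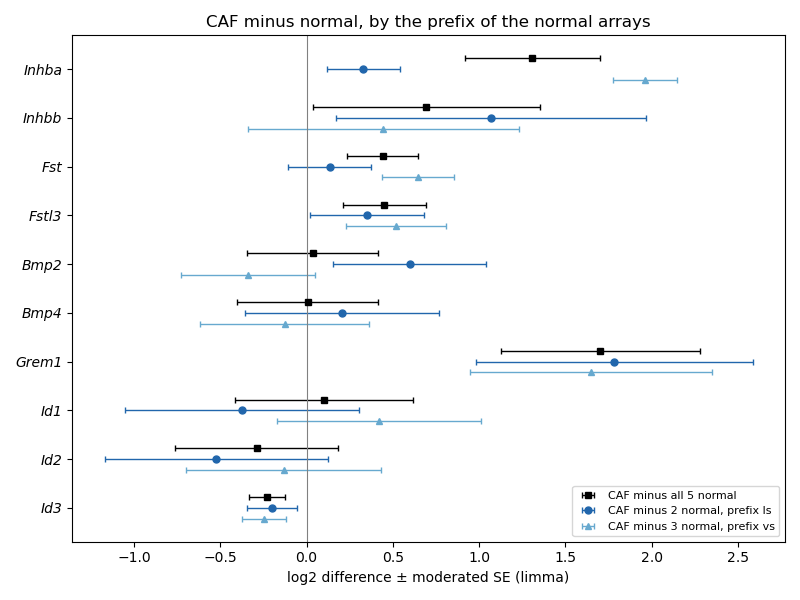
Log2 difference of each member, CAF minus normal, with its moderated SE, against all 5 normal arrays (black squares), the 2 with prefix ls (dark circles) and the 3 with prefix vs (light triangles). Inhba had 0.33 with ls and 1.96 with vs normal arrays, while Grem1 had 1.78 and 1.65.

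Grem1, the secreted antagonist that binds BMP2 and BMP4, had 14.06, 13.51, 14.61, 13.71 and 13.71 on CAF arrays 1 to 5, against 12.29, 14.12, 10.42, 12.62 and 11.65 on normal arrays 1 to 5. Normal arrays 1, 3, 4 and 5 lay below every CAF array, and normal array 2 lay above all CAF arrays except array 3. The CAF arrays averaged 13.92 ± 0.43 and the normal arrays 12.22 ± 1.35 (SD, 5 arrays each), a 3.25-fold higher value in CAF that did not pass (limma adjusted p = 0.134). The difference was of like size against either kind of normal array, 1.78 ± 0.80 with ls and 1.65 ± 0.70 with vs normal arrays, with limma adjusted p-values of 0.350 and 0.235. With array weights Grem1 was the only member called, at 1.89 ± 0.42 (limma adjusted p = 0.0346), in a fit that called 8.78% of all genes, 5.4% higher and 3.37% lower. Normal array 2, the normal array among the CAF values, had the lowest weight of all arrays in that fit, 0.331. Without it, and without weights, the difference of Grem1 was 2.18 ± 0.43 (limma adjusted p = 0.0524). Leaving out a single array gave differences of 1.25 to 2.18, with 0 calls.

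Of the BMP ligands, Bmp4 had 9.98 to 11.5 on CAF arrays (median 10.90) and 9.82 to 11.9 on normal arrays (median 11.02). The difference was 0.01 ± 0.41 (limma adjusted p = 0.995), so that the means agreed far within the spread of the cultures, and its sign turned to -0.09 after quantile normalisation. Without normal array 1 it was 0.26 and without normal array 2 -0.26. Bmp2 was read at 4.99 to 5.71 on CAF arrays (median 5.56) and 4.66 to 6.91 on normal arrays (median 5.04). The mean over all arrays was 5.43, below the lower quartile of 6.13 over all genes, and the table gives no detection call. Normal array 1, at 6.91, was the highest for Bmp2 and, at 11.91, also for Bmp4. The difference of Bmp2 was 0.04 ± 0.38 (limma adjusted p = 0.965), made up of opposite signs: 0.60 ± 0.44 for ls and -0.34 ± 0.39 for vs normal arrays. Without normal array 1 it was 0.41, and without normal array 4 it was -0.15.

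The ID genes, direct targets of BMP-activated SMADs, were bright on nearly all arrays. Id1 had 11.98, 12.62, 11.29, 12.003 and 12.38 on CAF arrays 1 to 5, against 12.22, 9.91, 12.78, 12.61 and 12.25 on normal arrays 1 to 5. Normal array 2 was more than 2 log2 units below the other normal arrays, and CAF array 3 was the lowest CAF array. The difference was 0.10 ± 0.52 (limma adjusted p = 0.924), and it turned to -0.41 ± 0.26 (limma adjusted p = 0.339) without normal array 2.

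Id2 had 11.14, 11.35, 10.40, 11.17 and 11.43 on CAF arrays 1 to 5, against 11.09, 9.80, 12.79, 11.80 and 11.44 on normal arrays 1 to 5. The same arrays were lowest as for Id1, normal array 2 and, among CAF, array 3, and normal array 3 was highest. The difference was -0.29 ± 0.47 (limma adjusted p = 0.744), with -0.15 ± 0.41 and -0.20 ± 0.25 for the other probe sets. Single arrays moved it to -0.69 without normal array 2 and turned it to 0.06 without normal array 3. Id3 varied least, with 12.98, 13.44, 13.19, 13.40 and 13.36 on CAF arrays 1 to 5, against 13.50, 13.37, 13.69, 13.58 and 13.36 on normal arrays 1 to 5. Its difference of -0.23 ± 0.11 did not pass (limma adjusted p = 0.236), with -0.20 ± 0.15 for ls and -0.25 ± 0.13 for vs normal arrays.

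The members were then compared with each other from culture to culture, on values from which the mean of each group had been taken, so that the difference between CAF and normal does not enter. All 45 pairs were computed over 10 arrays, each with an exact 2-sided permutation test that shuffled arrays within the groups (14400 arrangements) and Benjamini-Hochberg adjustment over the pairs. Id1 and Id2 rose and fell together: Pearson's r was 0.909 (permutation p = 0.000347, adjusted p = 0.0156) and Spearman's rho 0.927 (permutation p = 0.000208, adjusted p = 0.00938). It was the only pair of the 45 that passed, by r or by rho, and 5 pairs had an unadjusted permutation p under 0.05 for r. Without normal array 2 and CAF array 3, the 2 arrays farthest from the median of Id1, r was 0.722, and with the prefix means of the normal arrays also taken off it was 0.916.

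Grem1 had negative correlations with these targets of BMP signalling, which did not pass after adjustment. For Grem1 and Id1, r was -0.841 (permutation p = 0.00632, adjusted p = 0.0919) and rho -0.697 (permutation p = 0.0419, adjusted p = 0.236). For Grem1 and Id2, r was -0.921 (permutation p = 0.0102, adjusted p = 0.0919) and rho -0.648 (permutation p = 0.103, adjusted p = 0.331). Without normal arrays 3 and 5, the 2 farthest from the median of Grem1, r was -0.947 with Id1 and -0.882 with Id2, and with the prefix means taken off it was -0.877 and -0.928. Normal array 2 and CAF array 3, lowest for Id1 and Id2 in their groups, stayed in for these values. The correlations of Grem1 without those 2 arrays were not computed, so how far they rest on them was not tested. Inhbb also had negative correlations with these genes that did not pass, by rank larger than those of Grem1. For Inhbb and Id1, r was -0.539 (permutation p = 0.126, adjusted p = 0.355) and rho -0.867 (permutation p = 0.00465, adjusted p = 0.0938). For Inhbb and Id2, r was -0.615 (permutation p = 0.0817, adjusted p = 0.341) and rho -0.818 (permutation p = 0.0159, adjusted p = 0.179). Without CAF arrays 1 and 4, the 2 farthest from the median of Inhbb, r was -0.679 with Id1 and -0.862 with Id2. Normal array 2 and CAF array 3 stayed in here too. The array with the most Grem1 in each group, CAF array 3 at 14.61 and normal array 2 at 14.12, was also the array with the least Id1 and Id2 in that group. The array with the least Grem1, normal array 3 at 10.42, had the most Id1, Id2 and Id3 of all arrays. Normal array 2 also had the lowest macrophage marker mean (9.78) and mesothelial marker mean (6.06) of the 10 arrays and the highest fibroblast marker mean (14.5). CAF array 3 had the lowest macrophage mean among CAF arrays (10.7) and a mesothelial mean of 7.94. The part of these in the relation was not tested.

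**Figure D3:**
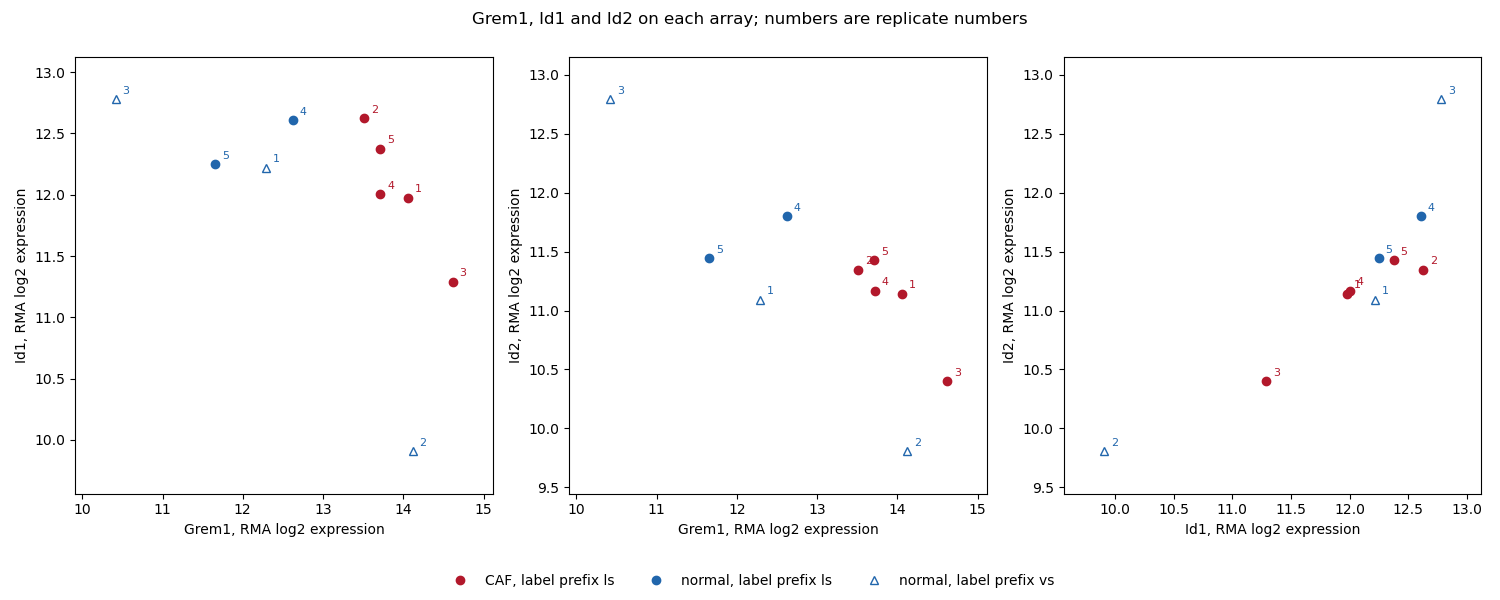
RMA log2 expression of Id1 against Grem1, Id2 against Grem1 and Id2 against Id1, with 1 point per array and its replicate number, CAF in red, normal in blue, circles for prefix ls and triangles for prefix vs. Normal array 2 (Grem1 14.12, Id1 9.91) and CAF array 3 (Grem1 14.61, Id1 11.29) have the least Id1 and Id2 of their groups.

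Inhba and Fst, whose product binds activin, had a positive correlation that did not pass either, with r of 0.716 (permutation p = 0.00611, adjusted p = 0.0919) and rho of 0.685 (permutation p = 0.00625, adjusted p = 0.0938). It was 0.709 without normal arrays 1 and 2 and 0.637 with the prefix means taken off. Fstl3 and Id2 had r of -0.836 (permutation p = 0.0101, adjusted p = 0.0919) and rho of -0.685 (permutation p = 0.0614, adjusted p = 0.241), and r was -0.567 without normal array 3 and CAF array 3.

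**Figure D4:**
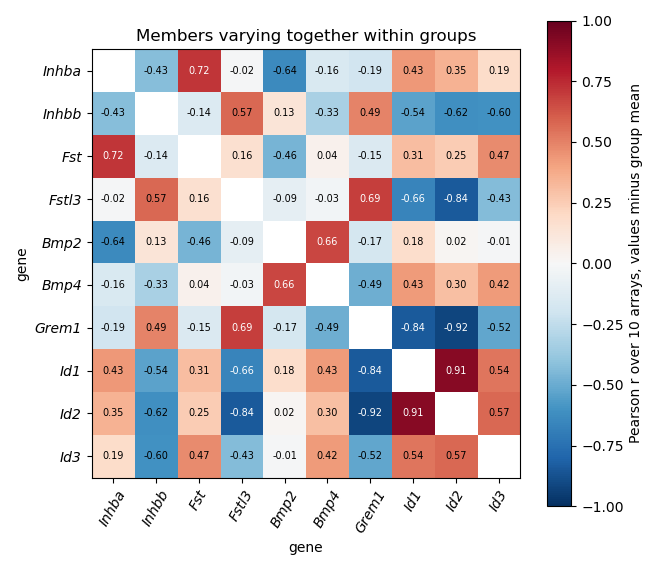
Pearson's r between members over 10 arrays, each value taken as the deviation from the mean of its group, with red for positive and blue for negative r. Id1 and Id2 have the strongest positive value (0.91), and Grem1 with Id2 the strongest negative value (-0.92).

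The wider pathway was read through 77 further genes of 85 listed. Limma called 0 of 77, at the background of 0.753% of all genes. At an unadjusted limma p under 0.05 there were 14 of the 77, 7 higher and 7 lower, beside 22.3% of all genes. The median difference was -0.05 over the list and -0.04 over all genes, and the groups did not overlap for 6 of the 77 genes, beside 7.16% of all genes.

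Of 13 SMADs and their regulators, 10 differences were positive, with a median of 0.22, and 9 and 11 were positive after quantile normalisation and after median centring. Skil, a corepressor of SMADs induced by activin and TGF-beta, had 11.33 to 11.52 on CAF arrays and 10.74 to 11.24 on normal arrays, without overlap. Its difference was 0.33 ± 0.10 (limma adjusted p = 0.101), with 0.20 for ls and 0.42 for vs normal arrays. Smad4, the common partner of the signalling SMADs, was the brightest of this group and had 0.06 ± 0.08, and Smad9, a SMAD of the BMP branch, had -0.10 ± 0.09.

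Among 17 receptors and co-receptors, 8 differences were positive, with a median of -0.02. Bmpr1b, a type I BMP receptor, had 8.998 to 9.86 on CAF arrays and 8.09 to 9.34 on normal arrays, with a difference of 0.72 ± 0.23 (limma adjusted p = 0.124). Tgfbr3, the co-receptor betaglycan and the brightest of the group, had 12.73 to 13.25 on CAF arrays and 11.43 to 13.52 on normal arrays, with a difference of 0.67 ± 0.34 (limma adjusted p = 0.276), 1.11 ± 0.42 for ls and 0.38 ± 0.36 for vs normal arrays. Normal array 2 was the highest for it, as among the normal arrays for Grem1. Acvr1c, the type I receptor ALK7, had -0.15 ± 0.07 at a dim level near 6.

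Of 17 ligands other than the members, 16 had a negative difference, with a median of -0.13, and 15 after quantile normalisation. Over all genes, 10416 of 18193 differences were negative. Each of these ligands had a mean over all arrays of 7.87 or less, under the median over all genes of 8.11. Dim genes leaned to negative differences as a class. The median difference was -0.04 over all genes and -0.001 without the genes below the lower quartile of level. The part of this in the ligands was not tested. Gdf3, a BMP-related ligand known from the early embryo, had 6.54 to 6.89 on CAF arrays and 6.96 to 7.36 on normal arrays, without overlap (difference -0.38 ± 0.09, limma adjusted p = 0.0756). Bmp5 had 0.32 ± 0.18, and Gdf11, the brightest of the group, -0.05 ± 0.10.

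Of 18 other secreted antagonists and modulators, 7 differences were positive, with a median of -0.07. Crim1, a membrane protein that binds BMPs, had 11.05, 12.21, 12.41, 12.22 and 12.38 on CAF arrays 1 to 5, against 10.91, 11.21, 10.62, 11.14 and 11.94 on normal arrays 1 to 5. CAF array 1 fell among the normal arrays and the other CAF arrays lay above all of them (difference 0.89 ± 0.31, limma adjusted p = 0.137). It was 0.52 ± 0.38 for ls and 1.14 ± 0.33 for vs normal arrays. Fstl1, a secreted glycoprotein and the brightest of the group, had -0.17 ± 0.17. Cer1, an antagonist of the early embryo, had -0.19 ± 0.07 at a dim level near 6.

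Of 16 further target genes, 7 differences were positive, with a median of -0.02. Id4, the fourth member of the ID family, had 9.92, 10.27, 9.94, 11.55 and 10.16 on CAF arrays 1 to 5, against 8.91, 9.03, 9.70, 9.86 and 9.40 on normal arrays 1 to 5. All CAF values lay above all normal values, though CAF array 1 and normal array 4 were close, and the difference was 0.99 ± 0.32, or 1.98-fold higher in CAF, without passing (limma adjusted p = 0.126). Id3 had a difference of the opposite sign, -0.23. Pmepa1, a feedback inhibitor of TGF-beta and activin signalling and the brightest of the group, had 0.24 ± 0.20, with 0.01 for ls and 0.38 for vs normal arrays. Tbx20, a T-box factor known from the heart, had -0.20 ± 0.05 (limma adjusted p = 0.0874) at 6.40 to 6.51 on CAF arrays and 6.56 to 6.72 on normal arrays.

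**Figure D5:**
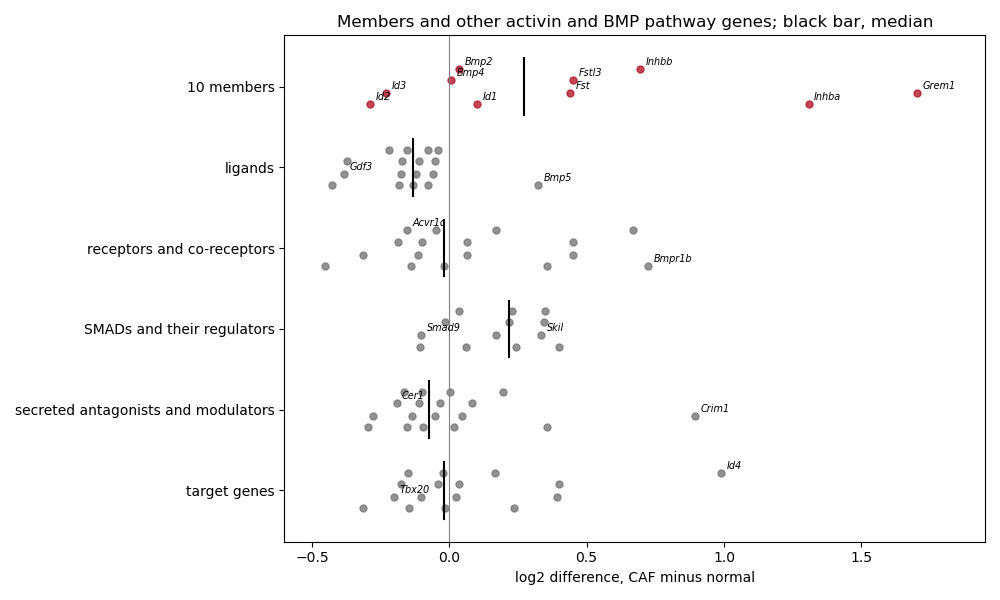
Log2 difference, CAF minus normal, of the 10 members (red) and of 77 other pathway genes by role (grey; a gene with 2 roles is drawn in each), with a black bar at the median of each row and the members and lowest-p genes named. Grem1 (1.70) and Inhba (1.31) lie farthest to the right, followed by Id4 (0.99) and Crim1 (0.89).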

How the data were processed

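Expression was measured on 10 arrays, 5 of CAF and 5 of normal lung fibroblasts, grouped by sample title. The authors' deposited table holds log2 values per probe set. Per the submitters' processing notes, Affymetrix Expression Console made them by RMA, and the tools included limma (versions not given in the sources used here). RMA quantile-normalises, so a difference is relative to the rest of the array. The deposited values still differed in distribution between the groups. Array medians were 6.73 to 6.74 on CAF and 6.76 to 6.79 on normal arrays. Array SDs were 2.41 to 2.44 on CAF and 2.33 to 2.39 on normal arrays.

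Of 45037 probe sets that are not controls, 34945 had 1 gene symbol in the platform table, 932 had several and 9160 were not listed. Symbols were updated through Entrez numbers to assembly GRCm38.p6 (34741 matched). Each of 18193 genes was read by its brightest probe set. The test was limma's (version 3.58.1, R 4.3.3; functions lmFit and eBayes) on group alone, with Benjamini-Hochberg adjustment over all genes and a call at 0.05. The fit was tested on simulated data. Prefix contrasts came from a fit with 3 groups (CAF, ls normal, vs normal). The precision is limited by the number of arrays.

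Pathway genes named are those with the smallest p in each direction and the brightest in each role. The members and lists were chosen with earlier results of these data known. Of the 85 listed pathway genes, 77 were read and the others were not analysed here. Alternatives covered the replicate number, prefix, scaling, dim genes, probe sets, weights, prior, permutation and leaving out each array.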

Additional observations from a re-analysis of the deposited data

Results flagged for a closer look

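Among 25 named genes, the 5 values of each group were searched for an array far from the others (Dixon's test), which made 50 sets and gave 6 such arrays. Chance gives about 1 in 20. Id1 on normal replicate 2 was at 9.91, with the nearest other normal array at 12.22, and Id2 on CAF replicate 3 was at 10.40, with the nearest other CAF array at 11.14. Crim1 on CAF replicate 1 was at 11.05, with the nearest other CAF array at 12.21. Id4 on CAF replicate 4 was at 11.55, with the nearest other CAF array at 10.27. Acvr1c on normal replicate 1 was at 5.95, with the nearest other normal array at 6.13, and Pmepa1 on CAF replicate 3 was at 12.54, with the nearest other CAF array at 12.26.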

How the results depend on the processing

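Over 22 alternatives, of which prefix as a term repeats the contrast with the ls normal arrays, the count of members called stayed at 0 in 20. It was 1 against the vs normal arrays alone (Inhba), where group and prefix change together, and 1 with array weights (Grem1). Pathway calls were 0 except with array weights, where limma called 4 of 77. The same fit called 8.78% of all genes, a larger share. The 4 were Gdf3 and Tbx20 with negative and Acvrl1 and Tgfbr3 with positive differences (Acvrl1, a type I receptor, was named after its values were seen). The count over all genes, 137 as deposited, was 285 against the vs normal arrays, 285 after median centring (250 higher, 35 lower), 81 without the genes below the lower quartile, 429 with every probe set tested singly, 1597 with array weights and 46 with a trend and robust prior. After quantile normalisation it was 92, 43 higher and 49 lower. It was 0 against the ls normal arrays, with 2649 genes at an unadjusted limma p under 0.05. The fit with prefix as a term gives the same contrast, since all CAF arrays are ls. The count was 0 by the exact permutation test (4070 genes at an unadjusted p under 0.05), whose p cannot fall below 0.00794. Leaving out 1 array gave 0 to 166 calls, with 0 without normal replicate 3 (3852 genes at an unadjusted p under 0.05) or CAF replicate 1 (3378), 3 (3538) or 5 (3003), 1 without CAF replicate 4, 24 without normal replicate 1, 63 without normal replicate 4 and 46 without normal replicate 5. In each of these fits 0 members and 0 pathway genes were called. A replicate block left 0 genes called by limma, with 3017 reaching an unadjusted p under 0.05, and 0 members, with 3 at that level (Inhba, Fst and Grem1). Their SEs with the block were 0.29, 0.08 and 0.65, against 0.39, 0.21 and 0.58 without it. Same-numbered arrays had correlations of -0.53 to 0.34 in their deviations from the group means, and 1 of 5 CAF arrays correlated best with its own number. With 5 arrays per group these values cannot settle whether the numbers pair the arrays.

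Signs turned for 6 members. Id1 had -0.37 against the ls normal arrays (the same contrast as with prefix as a term), -0.19 with array weights and -0.41 to 0.31 without 1 array. Bmp2 had -0.34 and Bmp4 -0.13 against the vs normal arrays, and Bmp4 -0.086 after quantile normalisation. Without 1 array Bmp2 had -0.15 to 0.41, Bmp4 -0.26 to 0.26 and Id2 -0.69 to 0.062. The second probe sets of Inhba and Inhbb had -0.16 and -0.084. Averaging both probe sets of Inhba gave 0.57, since the dim probe set counts as much as the bright. Other causes were not tested. Fst, Fstl3, Grem1 and Id3 kept their sign under every alternative run. The replicate block, the removal of dim genes, the prior and the permutation test leave the difference itself unchanged, so they could not turn a sign. Fstl3, Grem1 and Id3 have 1 probe set each, so the alternatives on probe sets could not turn theirs.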

Other observations

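Gdf10, a BMP-related ligand also called BMP3b, had 8.44, 6.71, 7.41, 7.17 and 6.36 on CAF arrays 1 to 5, against 12.11 on normal array 2 and 6.40 to 6.56 on the other normal arrays. The array that stood highest for Gdf10 was the normal array with the most Grem1 and the least Id1 and Id2. Gdf10 was named after its values were seen, and its difference between the groups was -0.37 ± 1.07 (limma adjusted p = 0.861).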
